A study of Mus musculus with 11 samples.

Results

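The genes examined were the collagens, laminins and integrins of the mouse together with fibronectin (Fn1), the nidogens (Nid1 and Nid2), perlecan (Hspg2) and SPARC (Sparc), in tailbud tissue with mutant forms of the FGF receptor gene Fgfr1. Members were the protein-coding genes whose symbols follow the naming pattern of a collagen, laminin or integrin chain, plus those 5 genes by name, so the rule rests on symbols alone. Of 56748 genes in the count table, 87 met this rule, and they comprised 44 collagen chains, 11 laminin chains, 27 integrin chains and the 5 others. A filter on low counts left 71 of the 87 members for testing among 16572 genes: 34 collagens, 10 laminins, 22 integrins and all 5 others. The 16 members left out averaged at most 0.356 CPM (counts scaled to library size) and reached at most 0.729 CPM in any library. Itgad, a leukocyte integrin chain, had 0 counts in all 11 libraries.

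The libraries were made from polyA RNA of tailbud tissue microdissected at E8.5, with 4 libraries from Fgfr1 FCSPG/FCSPG embryos, 3 from Fgfr1 FCPG/FCPG embryos and 4 from Wild-type embryos, called FCSPG, FCPG and WT. In both mutant lines, point mutations change the residues through which the receptor FGFR1 binds its effectors, and the study asked how transcription in developing mesoderm depends on canonical FGF signalling. The labels give the tissue as mesoderm of the tailbud, with the cell types NMPs, somitic mesoderm and intermediate mesoderm, and name no further allele, driver or treatment in any group. Strain, the number of embryos in a library and whether libraries of 1 group came from separate embryos are not given in the sources used here, so p-values measure only the spread between these libraries, part of which may be technical.

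Collagens are trimers of alpha chains. Fibrillar types such as I, II, III, V and XI build the fibres of mesenchyme and cartilage, whereas collagen IV and the laminins polymerise into the sheets of basement membranes, which nidogens and perlecan connect. Fibronectin is secreted as a dimer and pulled into fibrils by cells. Integrins are surface receptors made of an alpha and a beta chain, and the alpha chain sets much of the ligand choice: Itga5 and Itgav chains bind fibronectin, those of Itga3, Itga6 and Itga7 laminins, and those of Itga1, Itga2, Itga10 and Itga11 collagens. In mouse embryos, the formation of somites from the mesoderm of the tailbud requires fibronectin and its receptor of Itga5 and Itgb1 chains.

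Library totals ranged from 16014698 to 25453070 counts, and libraries are named by the numbers in the deposited column headers. Values per library are given in the order 13, 27, 30 and 32 for FCSPG, 19, 45 and 46 for FCPG, and 24, 25, 26 and 33 for WT. Fgfr1 itself (ENSMUSG00000031565, chromosome 8, 26003670 to 26065734, build mm39) reached 181, 171, 162 and 248 CPM in the FCSPG libraries, 242, 178 and 183 CPM in the FCPG libraries and 185, 169, 206 and 209 CPM in the WT libraries, so it was transcribed in every group, and the counts cannot show which allele a library carries. The presomitic and somite markers Tbx6, Msgn1, Dll1, Meox1 and Tcf15 were counted in all 11 libraries, while Uncx was at 0 in 1 FCSPG and 2 FCPG libraries and Pax1 in 3 FCSPG and 3 FCPG libraries. A list of 15 visceral endoderm markers summed to 304 to 1260.2 FPKM (counts scaled to library size and gene length) in FCSPG, 549 to 5503 FPKM in FCPG and 18.6 to 382 FPKM in WT, although the labels name no endoderm. Y-linked transcripts were counted in 1 of 4 FCSPG, 2 of 3 FCPG and 0 of 4 WT libraries, so embryo sex was not balanced between the groups, and the libraries within FCSPG and within FCPG did not all come from the same embryos. Its part in the differences below was not tested. FCPG library 45 (the highest visceral endoderm sum), WT library 26 (the highest primitive blood sum, given below) and WT library 33 (the lowest WT values of most fibrillar collagens) stood apart within their groups.

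In WT tailbud the transcripts of the set were dominated by fibronectin, its main beta receptor chain and components of basement membranes. Per length, Fn1 was highest at 93.5 ± 16.5 FPKM (SD, n = 4), followed by Itgb1, the beta chain shared by most matrix-binding integrins, at 83.5 ± 12.1 FPKM. Col18a1, a basement membrane collagen whose tail is cleaved to endostatin, reached 47.1 ± 7.45 FPKM and Sparc, a secreted collagen-binding glycoprotein, 46.2 ± 3.63 FPKM. Itgb5, a partner of Itgav, and Col4a1, the major collagen IV chain, followed at 41.5 ± 4.82 and 39.1 ± 2.53 FPKM. Below them lay Lamc1 (30.5 ± 1.42 FPKM), Nid2 (27.9 ± 4.62 FPKM), Col1a1 (23.1 ± 8.38 FPKM), Lamb1 (23.05 ± 1.04 FPKM) and Col4a2 (22.9 ± 2.07 FPKM). Neighbours from Lamc1 to Col4a2 differed by less than the larger of their SDs, as did Fn1 and Itgb1, and Col18a1 and Sparc.

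In all, 15 members reached 10 FPKM or more in WT, 23 lay between 1 and 10 FPKM and 49 were under 1 FPKM. The 5 highest members of WT took 49.5% ± 3.04 of the summed FPKM of all members in FCSPG (SD, n = 4), 48.96% ± 0.830 in FCPG (SD, n = 3) and 47.2% ± 2.58 in WT (SD, n = 4). The ranges of this share overlapped between the groups, at 46.8% to 52.7% in FCSPG, 48.04% to 49.7% in FCPG and 45.2% to 50.8% in WT.

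No member passed the test in any comparison. edgeR's quasi-likelihood test with Benjamini-Hochberg adjustment over 16572 genes called 0 genes at adjusted p under 0.05, members included, in FCSPG against WT, FCPG against WT and FCSPG against FCPG (0.00% of tested genes each). limma-voom also called 0 genes in each. DESeq2, an alternative test, called 41 genes in FCSPG against WT, with 0 members among them, and 1477 genes in FCPG against WT, with 6 members among them, as described further on. Differences below are therefore given as values with their errors. The spread of each gene was estimated over all groups together, so errors in FCSPG against WT also carry the spread of the FCPG libraries. Fitted on the FCSPG and WT libraries only, edgeR also called 0 genes in that comparison.

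At an unadjusted p under 0.05, 9 of 71 members were counted in FCSPG against WT, where 11% of all tested genes were. They were 1 higher member (6.24% of all genes were higher at this threshold) and 8 lower members (4.76% of all genes). In FCPG against WT the count was 18 of 71 members against 21.9% of all tested genes, with 7 higher (13% of all genes) and 11 lower (8.88% of all genes). The total of 18 members is a share of 25.4%, near that of all genes.

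More members lay lower than higher in the mutants, while the summed level of the set averaged higher in FCPG. In FCSPG, 53 of 71 members had a fold change below WT, where 50.1% of all genes did, and the median log2 fold change of the members was −0.29, beside −0.00060 for all tested genes. In FCPG, 45 of 71 lay below WT, where 49.8% of all genes did, with a median of −0.18 beside 0.0019. Without FCSPG library 30 the FCSPG median was −0.44, and without FCPG library 45, FCPG library 46 or WT library 33 the FCPG median was −0.31, −0.43 and −0.31. The medians were smaller in size without FCSPG library 13, at −0.20 in FCSPG, and without FCPG library 19, at −0.12 in FCPG. Both comparisons share the WT libraries, so their medians are not independent of each other. All 87 members together summed to 485, 609, 633 and 533 FPKM in the FCSPG libraries, 506, 999 and 782 FPKM in the FCPG libraries and 650.0, 659, 719 and 622 FPKM in the WT libraries. FCPG libraries 45 and 46 lay above the WT range and FCPG 19 below it, and 3 of 4 FCSPG libraries lay below it. By family, the median of the collagens was −0.36 over 34 tested chains in FCSPG and −0.53 in FCPG, and that of the 22 tested integrin chains was −0.27 in FCSPG and 0.0070 in FCPG. Without each library in turn the collagen median ranged from −0.56 to −0.26 in FCSPG and from −0.70 to −0.44 in FCPG. The integrin median ranged from −0.40 to −0.19 in FCSPG and from −0.19 to 0.26 in FCPG, where it turned sign with several libraries.

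Groups that did not overlap were few. In FCSPG, 6 of 71 members were separate from WT in every library (7.35% of all tested genes): Fn1, Itgav, Lamb1 and Lamc1 with all FCSPG values lower (3.35% of all genes), and Sparc and Itgb2 with all FCSPG values higher (4.00% of all genes). In FCPG, 8 of 71 were separate (14.5% of all tested genes): Col3a1, Col6a2, Col8a2, Itga2, Itga3 and Itgb5 lower (6.98% of all genes), and Col9a3 and Itgb2 higher (7.57% of all genes). Itgb2 is in both lists, at levels of at most 1.06 CPM.

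**Figure D1:**
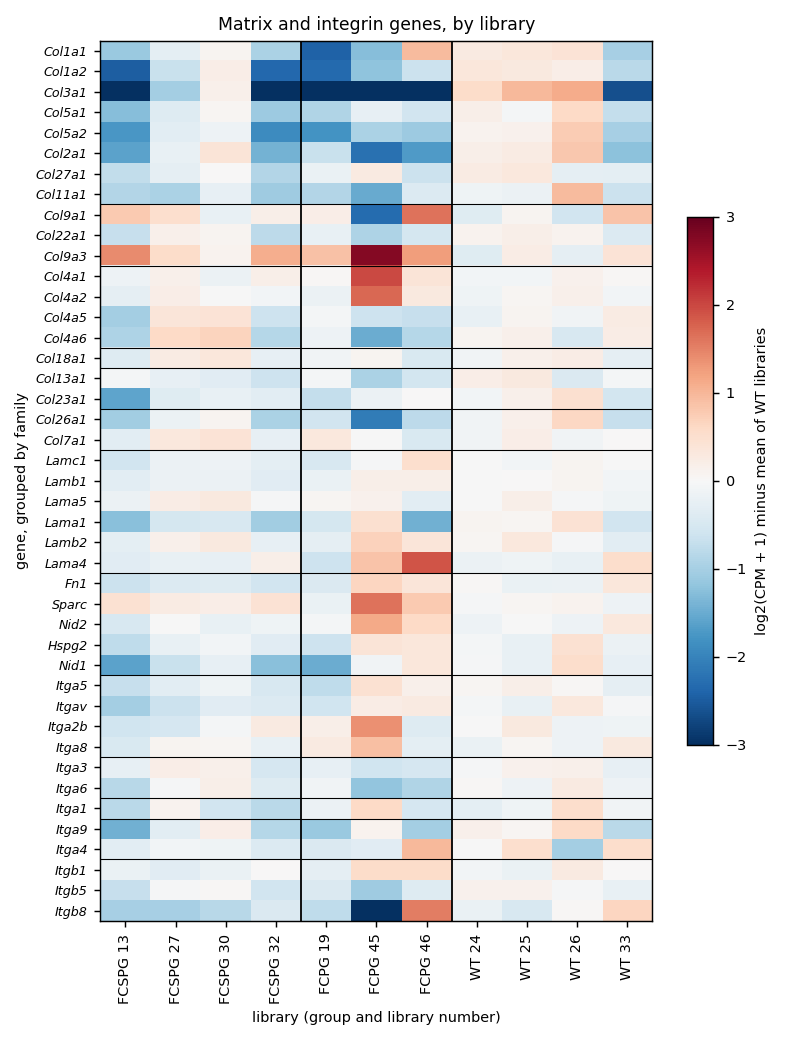
Level of 43 members that averaged at least 5 CPM, as log2(CPM + 1) minus the WT mean, with members as rows, libraries as columns and colours clipped at 3 log2 units either way. The fibrillar collagen rows are below the WT mean in FCSPG libraries 13 and 32 and in all FCPG libraries, except Col1a1 in library 46 and Col27a1 in library 45, and WT library 33 is below the WT mean in those rows.

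Fibrillar collagen chains had lower values in both mutants than in WT, with a wide spread between the libraries of a group. All 10 tested chains of 11 had negative fold changes in FCSPG (median log2 fold change −0.66) and in FCPG (median −0.87). Without each library in turn these medians ranged from −1.05 to −0.47 in FCSPG, the lowest without FCSPG library 30, and from −1.46 to −0.64 in FCPG, the lowest without FCPG library 46. By unadjusted p under 0.05 there was 1 in FCSPG, Col11a1, where 4.76% of all genes were lower. There were 4 in FCPG, namely Col3a1, Col5a2, Col2a1 and Col11a1, where 8.88% of all genes were lower. The summed level of the 11 chains was 19.9, 42.6, 60.99 and 21.2 FPKM in the FCSPG libraries, 17.5, 25.6 and 58.3 FPKM in the FCPG libraries and 67.6, 71.2, 83.1 and 28.3 FPKM in the WT libraries. FCSPG libraries 13 and 32 and FCPG libraries 19 and 45 lay at or below the lowest WT library, 33, while FCSPG 27 and 30 and FCPG 46 lay inside the WT range. In bulk tissue, fewer cells of a type and less RNA per cell cannot be told apart.

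Col3a1 (ENSMUSG00000026043, chromosome 1, 45350698 to 45388866, build mm39), which forms collagen III of loose mesenchyme and vessel walls, had the widest difference of the set. It reached 2.33, 26.6, 61.1 and 1.36 CPM in the FCSPG libraries, 4.12, 5.73 and 1.70 CPM in the FCPG libraries and 80.2, 108, 119.6 and 7.86 CPM in the WT libraries. All 3 FCPG libraries lay below all 4 WT libraries, and the FCSPG libraries split, with 27 and 30 inside the WT range and 13 and 32 below it. The log2 fold change was −1.79 ± 1.04 (SE, adjusted p = 0.519) in FCSPG and −4.36 ± 1.33 (SE, adjusted p = 0.117) in FCPG. Col1a2 (ENSMUSG00000029661, chromosome 6, 4504814 to 4541544), the second chain of collagen I, reached 16.7, 60.7, 111 and 18.1 CPM in the FCSPG libraries, 18.4, 41.5 and 61.7 CPM in the FCPG libraries and 122, 119, 111 and 54.5 CPM in the WT libraries. Its log2 fold changes were −0.98 ± 0.58 (SE, adjusted p = 0.526) in FCSPG and −1.33 ± 0.64 (SE, adjusted p = 0.254) in FCPG, with FCPG library 46 above WT library 33. The start regions of both genes are shown to set that of the chain with the widest difference beside that of another fibrillar chain. Each is RefSeq sequence of build GRCm38.p6, 250 bases before to 50 bases after the annotated start, 5′ to 3′ on the gene's strand, with capitals for a CCAAT box (CCAAT), a GC box (GGGCGG) or a TATA box (TATAAA) on either strand.
Col3a1 (chr1:45311288-45311587, plus strand): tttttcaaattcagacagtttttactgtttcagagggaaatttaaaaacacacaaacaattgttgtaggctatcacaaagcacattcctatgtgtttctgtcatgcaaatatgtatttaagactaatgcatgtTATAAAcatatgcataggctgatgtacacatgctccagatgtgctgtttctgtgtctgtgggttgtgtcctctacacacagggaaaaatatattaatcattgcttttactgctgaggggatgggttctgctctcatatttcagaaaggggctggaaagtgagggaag
Col1a2 (chr6:4505368-4505667, plus strand): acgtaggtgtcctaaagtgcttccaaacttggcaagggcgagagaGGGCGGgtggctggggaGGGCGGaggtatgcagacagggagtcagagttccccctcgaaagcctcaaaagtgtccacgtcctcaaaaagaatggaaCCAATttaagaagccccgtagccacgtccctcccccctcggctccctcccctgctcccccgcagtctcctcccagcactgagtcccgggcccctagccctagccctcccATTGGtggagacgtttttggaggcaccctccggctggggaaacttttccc
The Col3a1 window is rich in A and T, with 37.7% G and C bases and 1 TATA box match, whereas the Col1a2 window has 61.0% G and C, 2 CCAAT matches and 2 GC box matches. Among 32851 RefSeq start regions of the same length, 37.4% hold a CCAAT match, 35.7% a GC box match and 13.6% a TATA box match, and among 68 start regions of 62 members 18, 37 and 5 do. A match describes letters in this window and no measured binding.

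Col1a1, the first chain of collagen I, did not follow Col1a2 in every library. It reached 64.8, 115, 149 and 72.1 CPM in the FCSPG libraries, 25.3, 57.4 and 273 CPM in the FCPG libraries and 169, 178, 189 and 69.8 CPM in the WT libraries, and FCPG library 46 was the highest of all 11 libraries. Against WT, the log2 fold change was −0.59 ± 0.60 (SE, adjusted p = 0.706) in FCSPG and −0.35 ± 0.65 (SE, adjusted p = 0.789) in FCPG, where it was 0.13 ± 0.57 (SE) without library 19. Col5a2, a chain of the collagen V that starts fibril assembly, reached 14.9, 41.2, 46.6 and 13.2 CPM in the FCSPG libraries, 14.4, 26.4 and 23.8 CPM in the FCPG libraries and 55.7, 56.4, 88.8 and 25.7 CPM in the WT libraries. FCPG library 45 lay just above WT library 33, and the other 2 FCPG libraries lay below every WT library. Its log2 fold change was −0.97 ± 0.46 (SE, adjusted p = 0.462) in FCSPG and −1.40 ± 0.51 (SE, adjusted p = 0.156) in FCPG. Col5a1, its partner chain, had log2 fold changes of −0.66 ± 0.33 in FCSPG and −0.64 ± 0.36 in FCPG (SE).

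Col2a1, the collagen of cartilage and notochord sheath, reached 14.2, 38.9, 60.2 and 16.3 CPM in the FCSPG libraries, 28.3, 8.80 and 13.4 CPM in the FCPG libraries and 51.7, 54.2, 80.4 and 18.7 CPM in the WT libraries. WT library 33 was again the lowest of its group, and FCPG library 19 lay above it. edgeR put the log2 fold change at −0.66 ± 0.54 (SE, adjusted p = 0.633) in FCSPG and −1.60 ± 0.61 (SE, adjusted p = 0.167) in FCPG. Col11a1, which copolymerises with collagens II and V, reached 5.68, 5.38, 9.29 and 4.84 CPM in the FCSPG libraries, 5.70, 3.31 and 8.20 CPM in the FCPG libraries and 10.1, 9.76, 22.6 and 6.88 CPM in the WT libraries. WT library 26 was more than any other library, and without it the log2 fold change of Col11a1 was −0.50 ± 0.34 (SE) in FCSPG, against −0.97 ± 0.40 with all libraries, and −0.64 ± 0.37 (SE) in FCPG, against −1.11 ± 0.44. Col27a1 and Col24a1, fibrillar chains of embryonic cartilage and bone, had log2 fold changes of −0.47 ± 0.26 and −0.22 ± 0.50 (SE) in FCSPG, and Col11a2, a partner of Col11a1, −0.13 ± 0.40 (SE). In FCPG these were −0.18 ± 0.29, −0.51 ± 0.55 and −0.52 ± 0.44 (SE). Col5a3 was too low for testing.

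Markers of presomitic mesoderm and somite also averaged lower in both mutants than in WT. Of 9 listed markers, 8 were tested, and 8 of 8 had fold changes below WT in FCSPG (median log2 fold change −0.87) and in FCPG (median −1.46). Their summed level was 112, 120.4, 113 and 90.7 FPKM in the FCSPG libraries, 182, 20.2 and 27.9 FPKM in the FCPG libraries and 205, 241, 189 and 160.4 FPKM in the WT libraries. Every FCSPG sum and the sums of FCPG libraries 45 and 46 lay below the WT range. Endothelial markers, from cells that also make collagens, summed to 25.5 to 64.8 FPKM in FCSPG, 27.4 to 78.9 FPKM in FCPG and 43.2 to 86.98 FPKM in WT. In FCSPG 8 of 8 lay below WT (median log2 fold change −0.71). In FCPG 5 lay below WT and 3 above (median −0.64). Kdr averaged 197 CPM in FCPG against 123 CPM in WT, while Emcn was at 0 in 1 FCSPG and 1 FCPG library.

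Lists of markers for other cell types that the dissection could hold were summed in the same way, and 0 of their genes passed the adjusted test. The 7 primitive blood markers, such as the embryonic globin gene Hbb-y, summed to 48.7, 242, 525 and 188 FPKM in the FCSPG libraries, 257, 25.3 and 2.42 FPKM in the FCPG libraries and 786, 592, 4427 and 347 FPKM in the WT libraries. Their median log2 fold change was −2.05 in FCSPG and −3.02 in FCPG, and Hbb-y was at 0 in 2 FCPG libraries. At unadjusted p under 0.05, 3 of 7 were lower in FCSPG (4.76% of all genes were) and 5 of 7 in FCPG (8.88%). WT library 26 was far above the other WT libraries, and Col11a1, Col15a1, Lama3 and Itga1 were each higher there than in any other WT library. So were many other members, such as Col3a1, Col5a2, Col2a1, Lama1 and Itgav, though not Col1a2 or Col4a6, so this is not particular to those genes. The 7 neural tube markers summed to 23.3 to 91.2 FPKM in FCSPG, 4.74 to 41.2 FPKM in FCPG and 30.1 to 61.7 FPKM in WT, with medians of −0.027 in FCSPG and −1.89 in FCPG. Olig2 was at 0 in 2 FCSPG and 2 FCPG libraries, and Sox1 and Pax6 were each at 0 in 1 FCPG library. The 6 notochord markers summed to 51.4 to 65.95 FPKM in FCSPG, 32.05 to 68.95 FPKM in FCPG and 63.8 to 85.5 FPKM in WT, with medians of −0.10 in FCSPG and −0.91 in FCPG. In FCPG 4 of 6 lay below WT, and Noto and Shh were each at 0 in 1 FCPG library. The 2 above WT were Foxa2 and Chrd, which averaged 22.0 and 5.32 CPM in FCPG against 9.83 and 4.32 CPM in WT. In FCSPG 3 lay above WT and 3 below. The 8 markers of surface ectoderm and epithelium, all counted in every library, summed to 575 to 871 FPKM in FCSPG, 547 to 1256 FPKM in FCPG and 286 to 571 FPKM in WT. Their medians were 0.61 in FCSPG and 0.66 in FCPG. At unadjusted p under 0.05, 4 of 8 were higher in FCSPG (6.24% of all genes were) and 5 of 8 in FCPG (13%). The other 3 lay below WT in FCPG. These were Krt7, Grhl2 and Tfap2a, which averaged 12.1, 14.4 and 11.1 CPM there against 26.5, 14.8 and 16.3 CPM in WT. The list was therefore not uniformly higher in FCPG. The part of the cells marked by any of these lists in the collagen, laminin and integrin differences was not tested.

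**Figure D2:**
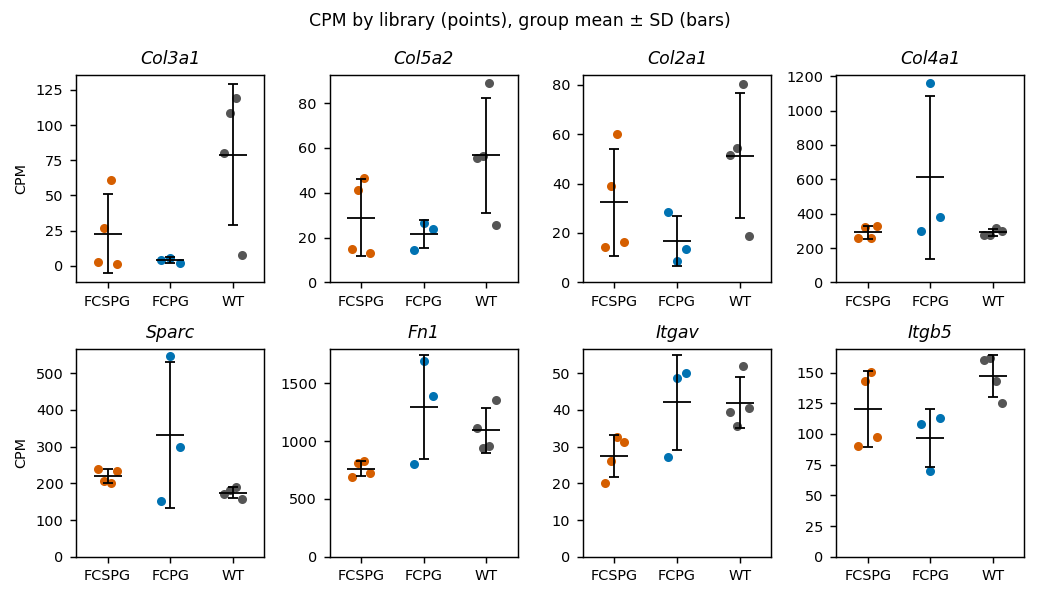
CPM per library of Col3a1, Col5a2, Col2a1, Col4a1, Sparc, Fn1, Itgav and Itgb5 in FCSPG, FCPG and WT, with points for libraries and lines for the mean ± SD. The 3 Col3a1 values of FCPG, at most 5.73 CPM, lie under the lowest WT value of 7.86 CPM, while Col4a1 and Sparc in FCPG are spread by library 45.

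The abundant collagen IV chains Col4a1 and Col4a2 did not share the lower values of the fibrillar chains, and their higher mean in FCPG came with 1 library. Col4a1 (ENSMUSG00000031502, chromosome 8, 11248423 to 11362826, build mm39) and Col4a2 (ENSMUSG00000031503, chromosome 8, 11362805 to 11499287) form the collagen IV found in nearly all basement membranes. Col4a1 reached 260.1, 322, 259.8 and 329 CPM in the FCSPG libraries, 297, 1158 and 384 CPM in the FCPG libraries and 277, 277, 316 and 297 CPM in the WT libraries. FCPG library 45 was far above the rest, FCPG 46 lay above every WT library and FCPG 19 inside the WT range. The log2 fold change was 0.0051 ± 0.33 (SE, adjusted p = 0.997) in FCSPG and 1.07 ± 0.36 (SE, adjusted p = 0.132) in FCPG. Without FCPG library 45 it was 0.22 ± 0.14 (SE, adjusted p = 0.573) in FCPG, and without FCPG library 19 it was 1.38 ± 0.30 (SE, adjusted p = 0.0167).

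Col4a2 followed its partner, with 126, 173, 151 and 143 CPM in the FCSPG libraries, 133, 498 and 184 CPM in the FCPG libraries and 139, 157, 168 and 142 CPM in the WT libraries. Library 45 was again apart from the rest. Its log2 fold change was −0.033 ± 0.32 (SE, adjusted p = 0.972) in FCSPG and 0.84 ± 0.34 (SE, adjusted p = 0.190) in FCPG, and 0.059 ± 0.16 (SE) in FCPG without library 45. The ratio of Col4a1 to Col4a2 FPKM was 1.53 to 2.03 in FCSPG, 1.85 to 2.06 in FCPG and 1.56 to 1.85 in WT, so the pair kept nearly 1 proportion while its level differed between libraries. These genes are transcribed in opposite directions from a shared start region, and their windows are printed because levels of the pair varied together.
Col4a1 (chr8:11312777-11313076, minus strand): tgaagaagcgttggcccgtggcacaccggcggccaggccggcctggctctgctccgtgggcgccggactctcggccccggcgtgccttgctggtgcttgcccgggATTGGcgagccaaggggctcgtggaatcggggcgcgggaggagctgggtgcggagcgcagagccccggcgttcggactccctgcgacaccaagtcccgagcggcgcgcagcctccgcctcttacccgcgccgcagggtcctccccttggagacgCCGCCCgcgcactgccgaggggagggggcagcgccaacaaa
Col4a2 (chr8:11312555-11312854, plus strand): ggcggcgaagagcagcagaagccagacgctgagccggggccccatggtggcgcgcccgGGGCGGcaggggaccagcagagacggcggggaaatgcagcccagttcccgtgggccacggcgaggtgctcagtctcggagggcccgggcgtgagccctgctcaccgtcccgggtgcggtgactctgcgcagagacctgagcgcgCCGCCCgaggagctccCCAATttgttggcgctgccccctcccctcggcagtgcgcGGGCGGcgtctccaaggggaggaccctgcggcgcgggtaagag
The annotated start sites lie 21 bases apart and the windows share 78 bases, with capitals as above. The Col4a1 window holds 1 CCAAT match and 1 GC box match and is 74.0% G and C, and the Col4a2 window holds 1 CCAAT match and 3 GC box matches at 73.7% G and C. In the shared bases there was 1 match, the GC box printed as CCGCCC near the end of the Col4a1 window and as GGGCGG in the Col4a2 window. Neither window holds a TATA box match.

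The X-linked pair Col4a5 and Col4a6, chains of more restricted basement membranes, varied more within FCSPG than between the groups. Col4a5 reached 20.3, 53.9, 56.1 and 27.00 CPM in the FCSPG libraries, 40.1, 26.6 and 25.5 CPM in the FCPG libraries and 35.8, 44.4, 38.8 and 49.8 CPM in the WT libraries, and Col4a6 18.95, 56.9, 59.5 and 20.2 CPM in the FCSPG libraries, 33.2, 12.5 and 20.1 CPM in the FCPG libraries and 39.6, 41.5, 26.5 and 43.9 CPM in the WT libraries. FCSPG libraries 27 and 30 were the highest of all for both genes, and FCSPG 13 and 32 were below all WT libraries. The log2 fold changes in FCPG were −0.46 ± 0.33 and −0.78 ± 0.45 (SE). Col4a3 and Col4a4, chains of the mature kidney filter, were under the filter. Col18a1 overlapped WT in both mutants, at 249, 387, 417 and 275 CPM in the FCSPG libraries, 303, 344 and 239.9 CPM in the FCPG libraries and 305, 363, 383 and 270.1 CPM in the WT libraries, with log2 fold changes of 0.0069 ± 0.19 in FCSPG and −0.16 ± 0.20 in FCPG (SE). Its relative Col15a1 was rare, with 0.299, 1.19, 1.39 and 0.252 CPM in the FCSPG libraries, 0.686, 0.709 and 0.182 CPM in the FCPG libraries and 1.06, 1.17, 7.36 and 0.310 CPM in the WT libraries, and WT library 26 far above the others.

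Markers of the visceral endoderm, which makes basement membrane in the early embryo, were high in the same FCPG library. The summed marker level was 1249, 753, 304 and 1260.2 FPKM in the FCSPG libraries, 549, 5503 and 1274 FPKM in the FCPG libraries and 229, 137, 18.6 and 382 FPKM in the WT libraries, and library 45 was the highest of all. All 15 of 15 markers had fold changes above WT in FCSPG (median log2 fold change 2.27) and in FCPG (median 3.68). At unadjusted p under 0.05, 10 were higher in FCSPG (6.24% of all genes were) and 15 in FCPG (13%). The lipoprotein gene Apoa4 was at 0 in 1 WT library, and the other 14 markers, such as Afp and Ttr, were counted in all 11. Parietal endoderm markers, a list that holds the members Lamb1 and Sparc, summed to 121 to 156 FPKM in FCSPG, 123 to 300.3 FPKM in FCPG and 117 to 133 FPKM in WT. Sparc and Lamb1 averaged 175 and 229 CPM of a mean parietal sum of 590 CPM in WT, and 332 and 238 of 889 CPM in FCPG. In CPM those 2 members therefore made up most of this sum, so the sum is not separate from Sparc. Of the 10 markers, 7 had fold changes above WT in FCPG (median log2 fold change 0.49), and Thbd, Stra6 and Plat lay below. At unadjusted p under 0.05, 3 were higher in FCPG (13% of all genes were). Pth1r and Sox17 averaged 89.5 and 66.7 CPM in FCPG, against 29.7 and 15.9 CPM in WT. In FCSPG 6 of 10 lay above WT and 4 below (median 0.23). The part of visceral and parietal endoderm in the levels of collagen IV, SPARC and nidogen 2 was not tested.

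**Figure D3:**
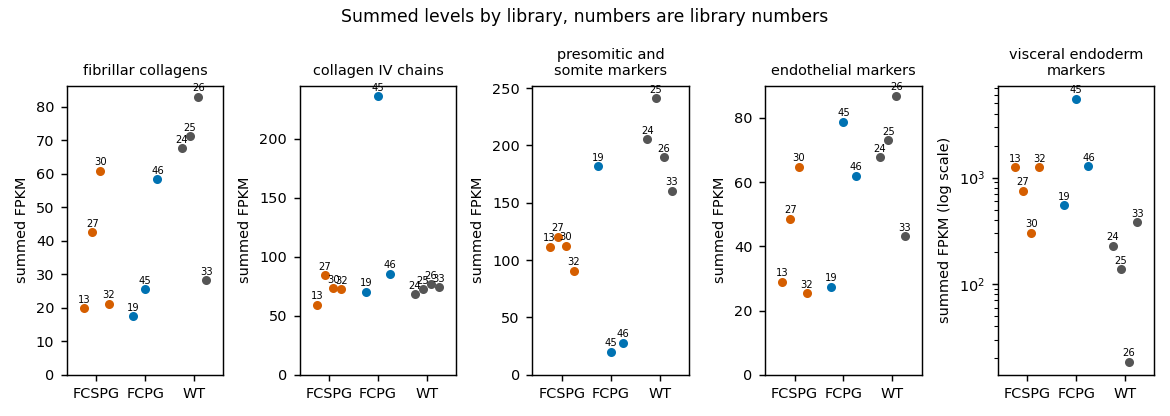
Summed FPKM per library of fibrillar collagen chains, collagen IV chains, presomitic and somite markers, endothelial markers and visceral endoderm markers (log axis) in FCSPG, FCPG and WT. FCPG library 45 has the highest collagen IV sum (236 FPKM) and the highest visceral endoderm sum (5503 FPKM) of all 11 libraries.

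Among fibril-associated collagens, which coat fibrils without forming them, Col9a3 had higher values in the mutants. This chain of the collagen IX of cartilage reached 8.13, 4.04, 2.67 and 6.25 CPM in the FCSPG libraries, 5.28, 22.03 and 7.17 CPM in the FCPG libraries and 1.64, 3.004, 1.83 and 3.57 CPM in the WT libraries. Every FCPG library was above every WT library, and 3 of 4 FCSPG libraries were too. Against WT, the log2 fold change was 1.07 ± 0.50 (SE, adjusted p = 0.461) in FCSPG and 2.19 ± 0.53 (SE, adjusted p = 0.104) in FCPG, the smallest p of the set, and without FCPG library 45 it was 1.30 ± 0.44 (SE) in FCPG. Its partner Col9a1 reached 44.00, 36.1, 21.4 and 28.4 CPM in the FCSPG libraries, 29.1, 4.25 and 79.1 CPM in the FCPG libraries and 19.2, 26.5, 16.5 and 46.5 CPM in the WT libraries, with the lowest value in FCPG library 45, where Col9a3 was highest. The ratio of Col9a1 to Col9a3 FPKM accordingly spanned 0.147 to 8.39 in FCPG, against 3.46 to 6.78 in FCSPG and 6.70 to 9.91 in WT. Col9a2, the remaining chain, had log2 fold changes of 0.11 ± 0.60 in FCSPG and 0.55 ± 0.65 in FCPG (SE).

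Col12a1, a fibril-associated collagen of dense connective tissue, reached 0.359, 1.05, 1.87 and 1.06 CPM in the FCSPG libraries, 0.580, 2.30 and 1.40 CPM in the FCPG libraries and 4.44, 1.88, 6.73 and 1.03 CPM in the WT libraries, a log2 fold change of −1.69 ± 0.65 (SE, adjusted p = 0.446) in FCSPG. WT libraries 24 and 26 lay above all others, and WT 33 lay within the FCSPG range. Col22a1 reached at most 7.13 CPM, with log2 fold changes of −0.31 ± 0.32 in FCSPG and −0.66 ± 0.35 in FCPG (SE). The family as a whole had a median near 0, at 0.14 in FCSPG and −0.0051 in FCPG over 8 tested chains of 9. Without each library in turn it ranged from −0.057 to 0.27 in FCSPG and from −0.49 to 0.15 in FCPG, so its sign depended on single libraries.

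All 4 transmembrane collagens lay lower in both mutants, with medians of −0.80 in FCSPG and −0.77 in FCPG. Without FCSPG library 30 the FCSPG median was −1.45, and the FCPG median was −1.88 without FCPG library 19 and −0.46 without FCPG library 45. Col17a1, the hemidesmosome collagen of epithelia, was near the detection limit at 0.120, 0.285, 0.374 and 0.101 CPM in the FCSPG libraries, 0.528, 0 and 0.0608 CPM in the FCPG libraries and 0.687, 1.31, 1.71 and 0.362 CPM in the WT libraries. Its log2 fold change was −2.18 ± 0.82 (SE, adjusted p = 0.446) in FCSPG and −2.30 ± 0.92 (SE, adjusted p = 0.183) in FCPG, where library 45 had 0 counts. Col13a1 and Col23a1, found at cell adhesions, had log2 fold changes of −0.35 ± 0.24 and −0.61 ± 0.33 (SE) in FCSPG and −0.53 ± 0.26 and −0.33 ± 0.35 (SE) in FCPG.

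Collagen VI, a beaded filament of interstitial matrix, was low throughout, with summed levels of 0.781 to 1.70 FPKM in FCSPG, 0.861 to 1.56 FPKM in FCPG and 1.22 to 1.84 FPKM in WT. Col6a2 reached 2.06, 2.42 and 3.46 CPM in the FCPG libraries, against 4.39, 5.49, 4.75 and 3.78 CPM in the WT libraries, so that all FCPG values were below all WT values. Its partner Col6a1 overlapped WT, with 2.27, 3.43 and 4.80 CPM in the FCPG libraries, against 2.54, 4.55, 3.85 and 3.10 CPM in the WT libraries. The ratio of Col6a1 to Col6a2 FPKM was 1.27 to 1.57 in FCSPG, 2.10 to 2.69 in FCPG and 1.10 to 1.58 in WT, without overlap between FCPG and WT. Col26a1, a collagen known from testis and ovary, reached 12.8, 23.98, 28.8 and 13.6 CPM in the FCSPG libraries, 17.9, 5.61 and 15.3 CPM in the FCPG libraries and 25.3, 30.6, 42.8 and 16.6 CPM in the WT libraries, a log2 fold change of −1.15 ± 0.44 (SE, adjusted p = 0.169) in FCPG. Col7a1, the anchoring fibril collagen, was level at 0.092 ± 0.27 in FCSPG and −0.018 ± 0.29 in FCPG (SE).

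Among the laminins, differences were small in the abundant beta and gamma chains and wider in most alpha chains. Lamb1, the beta chain of most embryonic laminins, reached 183, 202, 201 and 180.5 CPM in the FCSPG libraries, 198, 258 and 259 CPM in the FCPG libraries and 227, 228, 242 and 217 CPM in the WT libraries. All 4 FCSPG values lay below all 4 WT values, and the FCPG values overlapped WT. edgeR put the log2 fold change at −0.25 ± 0.10 (SE, adjusted p = 0.446) in FCSPG and 0.060 ± 0.11 (SE, adjusted p = 0.782) in FCPG. Lamc1, the gamma chain shared by nearly all laminins, reached 170.3, 222, 228 and 204 CPM in the FCSPG libraries, 181, 247 and 359.6 CPM in the FCPG libraries and 249.6, 239.6, 268 and 252 CPM in the WT libraries. Again the FCSPG values were all below WT, by a log2 fold change of −0.29 ± 0.18 (SE, adjusted p = 0.532). The ratio of Lamb1 to Lamc1 FPKM was 0.737 to 0.896 in FCSPG, 0.601 to 0.911 in FCPG and 0.719 to 0.795 in WT.

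Lama1, the alpha chain of the first embryonic basement membranes, reached 31.98, 54.1, 56.1 and 37.3 CPM in the FCSPG libraries, 53.6, 109 and 28.2 CPM in the FCPG libraries and 83.1, 81.5, 106 and 52.1 CPM in the WT libraries. FCSPG libraries 27 and 30 lay just above WT library 33, and the other FCSPG values lay below WT. The log2 fold change was −0.85 ± 0.36 (SE, adjusted p = 0.446) in FCSPG and −0.35 ± 0.39 (SE, adjusted p = 0.638) in FCPG, where library 45 exceeded every WT value. Lama5, the alpha chain that takes over in later epithelia, reached 131, 175, 183 and 145 CPM in the FCSPG libraries, 157, 162 and 120.0 CPM in the FCPG libraries and 149, 170.3, 145 and 136 CPM in the WT libraries, with log2 fold changes of 0.080 ± 0.14 in FCSPG and −0.035 ± 0.15 in FCPG (SE). The ratio of Lama1 to Lama5 FPKM was 0.287 to 0.363 in FCSPG, 0.277 to 0.787 in FCPG and 0.452 to 0.861 in WT, without overlap between FCSPG and WT. Lama5 thus made up 68.1% ± 1.32 of alpha chain FPKM in FCSPG (SD, n = 4), 54.9% ± 10.1 in FCPG (SD, n = 3) and 55.4% ± 4.58 in WT (SD, n = 4).

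Lama4, an alpha chain of vessel and mesenchymal basement membranes, reached 19.3, 21.1, 20.4 and 27.8 CPM in the FCSPG libraries, 15.6, 45.3 and 93.3 CPM in the FCPG libraries and 21.5, 22.6, 20.98 and 35.96 CPM in the WT libraries. FCPG libraries 45 and 46 were the highest of all and library 19 the lowest, for log2 fold changes of −0.19 ± 0.41 (SE, adjusted p = 0.868) in FCSPG and 1.03 ± 0.44 (SE, adjusted p = 0.204) in FCPG. Without FCPG library 46 the FCPG value was 0.27 ± 0.37 (SE). Lama3, an epithelial alpha chain, was rare, with 0.120, 0.714, 1.49 and 0.252 CPM in the FCSPG libraries, 0.528, 0.650 and 0.122 CPM in the FCPG libraries and 2.11, 1.17, 5.57 and 0.207 CPM in the WT libraries. Its log2 fold change was −1.80 ± 0.91 (SE, adjusted p = 0.474) in FCSPG and −2.37 ± 1.05 (SE, adjusted p = 0.217) in FCPG, and most of the WT level came from library 26. Lamb2, Lamb3 and Lama2 had log2 fold changes between −0.64 and 0.21 in FCSPG and between −0.45 and 0.30 in FCPG. Lamc3 was not tested.

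Fibronectin averaged lower in FCSPG and higher in FCPG than in WT. Fn1 (ENSMUSG00000026193, chromosome 1, 71624679 to 71692359, build mm39) reached 689, 807, 827 and 721 CPM in the FCSPG libraries, 806, 1691 and 1387 CPM in the FCPG libraries and 1112, 941, 957 and 1358 CPM in the WT libraries. All 4 FCSPG libraries lay below all 4 WT libraries, whereas FCPG libraries 45 and 46 were the highest of all and FCPG 19 was under WT. Against WT, the log2 fold change was −0.52 ± 0.20 (SE, adjusted p = 0.446) in FCSPG and 0.25 ± 0.21 (SE, adjusted p = 0.526) in FCPG. Without FCPG library 45 the FCPG value was −0.0020 ± 0.21 (SE), so its higher mean rested on that library. The difference between the mutants is given further on. Without each library in turn, the FCSPG value lay between −0.59 and −0.40.

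Of the basement membrane linkers, Nid1 averaged lower in both mutants, and Nid2 lower in FCSPG and higher in FCPG. Nid1 reached 19.3, 37.8, 51.5 and 25.1 CPM in the FCSPG libraries, 21.1, 56.9 and 78.00 CPM in the FCPG libraries and 59.4, 52.1, 88.1 and 51.3 CPM in the WT libraries, with log2 fold changes of −0.91 ± 0.39 (SE, adjusted p = 0.446) in FCSPG and −0.27 ± 0.42 (SE, adjusted p = 0.744) in FCPG. Without FCPG library 19 the FCPG value of Nid1 was 0.10 ± 0.36 (SE). FCSPG library 30 lay at the lower edge of WT and the other 3 FCSPG libraries below it. Nid2, the more abundant nidogen, reached 103, 142, 123 and 131 CPM in the FCSPG libraries, 138, 317 and 219 CPM in the FCPG libraries and 129, 142, 128 and 179 CPM in the WT libraries, with log2 fold changes of −0.21 ± 0.22 (SE, adjusted p = 0.707) in FCSPG and 0.64 ± 0.23 (SE, adjusted p = 0.156) in FCPG. FCPG libraries 45 and 46 exceeded all WT libraries, and without library 45 the FCPG value of Nid2 was 0.30 ± 0.20 (SE). Hspg2, the heparan sulfate proteoglycan perlecan, had log2 fold changes of −0.36 ± 0.24 in FCSPG and 0.076 ± 0.25 in FCPG (SE).

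Sparc reached 239.8, 206, 201 and 235 CPM in the FCSPG libraries, 152, 546 and 299.6 CPM in the FCPG libraries and 171, 182, 189 and 157 CPM in the WT libraries. Every FCSPG value lay above every WT value by a small amount, and in FCPG libraries 45 and 46 lay far above WT with library 19 below it. edgeR put the log2 fold change at 0.33 ± 0.28 (SE, adjusted p = 0.648) in FCSPG and 0.93 ± 0.30 (SE, adjusted p = 0.128) in FCPG. Without FCPG library 45 the FCPG value was 0.36 ± 0.21 (SE, adjusted p = 0.536), and without library 19 1.26 ± 0.18 (SE, adjusted p = 0.00778). Sparc is also a parietal endoderm marker, and the visceral endoderm sums given above were high in the same FCPG libraries, 45 and 46.

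Integrin alpha chains that recognise the RGD sequence of fibronectin and vitronectin averaged lower in FCSPG, while their direction in FCPG depended on 1 library. All 4 tested chains had fold changes under WT in FCSPG (median −0.31) and above it in FCPG (median 0.22). The FCPG median was −0.12 without FCPG library 45 and 0.37 without FCPG library 19, and the FCSPG median was −0.21 without FCSPG library 13. Itgav (ENSMUSG00000027087, chromosome 2, 83554741 to 83637260, build mm39), a partner of several beta chains, reached 19.97, 25.98, 32.5 and 31.2 CPM in the FCSPG libraries, 27.2, 48.7 and 50.2 CPM in the FCPG libraries and 39.5, 35.7, 51.9 and 40.5 CPM in the WT libraries. The FCSPG values were all below the WT values, by a log2 fold change of −0.61 ± 0.22 (SE, adjusted p = 0.446), and in FCPG the change was 0.0039 ± 0.24 (SE, adjusted p = 0.995). Itga5, the fibronectin receptor chain, was the most abundant alpha chain, at 61.3, 80.5, 92.3 and 71.2 CPM in the FCSPG libraries, 58.9, 139 and 111 CPM in the FCPG libraries and 104, 114, 102 and 83.6 CPM in the WT libraries. FCSPG library 30 lay above WT library 33, so the groups overlapped. Its log2 fold changes were −0.40 ± 0.23 (SE, adjusted p = 0.509) in FCSPG and 0.028 ± 0.24 (SE, adjusted p = 0.963) in FCPG. Itga8, a nephronectin receptor chain, and Itga2b, the platelet chain, had −0.15 ± 0.29 and −0.22 ± 0.39 (SE) in FCSPG and 0.42 ± 0.31 and 0.65 ± 0.42 (SE) in FCPG.

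The laminin receptor chains Itga3 and Itga6 averaged lower in FCPG than in WT, with smaller differences in FCSPG. Itga3 reached 73.6, 102, 98.4 and 61.7 CPM in the FCSPG libraries, 73.6, 57.6 and 61.8 CPM in the FCPG libraries and 85.4, 96.7, 98.6 and 73.7 CPM in the WT libraries. All 3 FCPG values lay below the lowest WT value, library 19 only just, while FCSPG values spread from below to above the WT range. The log2 fold change was −0.080 ± 0.17 (SE, adjusted p = 0.864) in FCSPG and −0.46 ± 0.18 (SE, adjusted p = 0.180) in FCPG. Itga6 reached 33.1, 57.7, 67.5 and 45.4 CPM in the FCSPG libraries, 54.98, 25.6 and 31.5 CPM in the FCPG libraries and 61.3, 52.99, 72.1 and 53.4 CPM in the WT libraries, with log2 fold changes of −0.24 ± 0.26 (SE, adjusted p = 0.729) in FCSPG and −0.68 ± 0.28 (SE, adjusted p = 0.196) in FCPG. FCPG libraries 45 and 46 were the lowest of all, and FCPG 19 was inside the WT range. Itga7, the muscle chain, stayed at or under 1.12 CPM.

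Collagen receptor chains were all weakly expressed. Itga1 reached at most 10.04 CPM, with log2 fold changes of −0.60 ± 0.36 in FCSPG and 0.010 ± 0.39 in FCPG (SE). Itga2, the chain of platelets and epithelia, had 0.418, 0.809, 0.427 and 0.353 CPM in the FCSPG libraries, 0.580, 0.236 and 0 CPM in the FCPG libraries and 1.16, 0.798, 1.52 and 0.776 CPM in the WT libraries. All FCPG values lay under WT, for a log2 fold change of −1.92 ± 0.74 (SE, adjusted p = 0.170), with 0 counts in library 46. Itga4 and Itga9, receptor chains for the fibronectin variable region and tenascin, had log2 fold changes of −0.37 ± 0.40 and −0.59 ± 0.42 (SE) in FCSPG and 0.11 ± 0.43 and −0.67 ± 0.46 (SE) in FCPG. Itga9 was lowest in FCSPG 13 and FCPG 19 and highest in WT 26, at 7.89, 10.2 and 35.5 CPM.

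Of the beta chains, Itgb1 and Itgb5 together took nearly all of the transcripts in every group. Itgb1 made up 67.5% ± 6.83 of beta chain FPKM in FCSPG (SD, n = 4), 76.5% ± 7.99 in FCPG (SD, n = 3) and 65.4% ± 4.76 in WT (SD, n = 4). It reached 297, 268, 294 and 341 CPM in the FCSPG libraries, 280.0, 499.5 and 493 CPM in the FCPG libraries and 319, 293, 408 and 343 CPM in the WT libraries, with log2 fold changes of −0.18 ± 0.18 (SE, adjusted p = 0.685) in FCSPG and 0.32 ± 0.19 (SE, adjusted p = 0.352) in FCPG. FCPG libraries 45 and 46 lay above every WT library. Itgb5 reached 90.2, 143, 150.3 and 97.5 CPM in the FCSPG libraries, 108, 69.7 and 113 CPM in the FCPG libraries and 160.2, 162, 143 and 125 CPM in the WT libraries. All 3 FCPG values lay below all 4 WT values, and 2 of 4 FCSPG values did. Its log2 fold change was −0.29 ± 0.20 (SE, adjusted p = 0.565) in FCSPG and −0.61 ± 0.22 (SE, adjusted p = 0.149) in FCPG, and without FCPG library 45 it was −0.42 ± 0.21 (SE).

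Itgb8, a beta chain that activates TGF-beta with Itgav, was the most variable, at 6.16, 6.19, 6.99 and 9.47 CPM in the FCSPG libraries, 7.39, 0.118 and 40.6 CPM in the FCPG libraries and 11.5, 9.15, 13.7 and 21.2 CPM in the WT libraries. FCPG library 45 held 2 counts and FCPG library 46 held the highest value of all. Its log2 fold changes were −0.94 ± 0.89 (SE, adjusted p = 0.682) in FCSPG and 0.21 ± 0.94 (SE, adjusted p = 0.922) in FCPG, where it was −1.88 ± 0.92 (SE) without library 46. Itgb4, the hemidesmosome chain, reached 8.39 CPM in FCPG library 45 and at most 2.65 CPM elsewhere. Leukocyte integrins, 8 chains of which 4 were tested, were at the detection limit. Itgb2, the beta chain of leukocytes, had 0.957, 0.285, 0.374 and 0.957 CPM in the FCSPG libraries, 0.264, 1.06 and 0.243 CPM in the FCPG libraries and 0.0529, 0.0939, 0.195 and 0.207 CPM in the WT libraries, so both mutants lay above WT, with log2 fold changes of 2.15 ± 0.69 (SE, adjusted p = 0.446) in FCSPG and 1.86 ± 0.73 (SE, adjusted p = 0.178) in FCPG.

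The tools differed most in FCPG against WT. DESeq2 on all 11 libraries called 1477 genes, 9.12% of those with an adjusted p, and 6 of 69 members. The 3 lower members (2.77% of all genes were lower calls) were Col3a1 (DESeq2 adjusted p = 0.00969), Col5a2 (0.0455) and Col2a1 (0.0478), and the 3 higher members (6.35% of all genes) were Col9a3 (0.00287), Col4a1 (0.0424) and Sparc (0.0434). The share of members called was 8.70%, close to that of all genes. In FCSPG against WT, DESeq2 called 0.248% of genes and 0 members, and in FCSPG against FCPG it called 1 gene (0.00605%) and 0 members.

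The authors' deposited table, which lists genes with an unadjusted p under 0.05 and gives log2 values as WT over mutant, turned here, holds 5 members among 1200 genes at adjusted p under 0.05 for FCPG. In the authors' deposited table these are Col3a1 at −4.35 (adjusted p = 0.000370), Col9a3 at 2.20 (adjusted p = 0.00257), Col5a2 at −1.39 (adjusted p = 0.0165), Col2a1 at −1.60 (adjusted p = 0.0314) and Col1a2 at −1.32 (adjusted p = 0.0336). For FCSPG the authors' deposited table holds 4 members among 482 such genes, namely Fn1 at −0.53 (adjusted p = 0.0265), Lama1 at −0.85 (adjusted p = 0.0273), Itgb8 at −0.95 (adjusted p = 0.0323) and Itgav at −0.62 (adjusted p = 0.0492). The number of genes the authors tested is not known from that table, so no share of all genes can be set beside these counts. The 4 do not include a collagen, though Col17a1 lay just past the threshold (adjusted p = 0.0512 in the authors' deposited table). The 5 do not include a laminin or integrin, and Itgb5 had adjusted p = 0.0847 in the authors' deposited table. None of these genes passed edgeR's test with all libraries.

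Leaving out FCPG library 19 changed the edgeR calls. On 10 libraries the test called 2736 of 17045 genes in FCPG against WT (16.1%), with 11 of 72 tested members. The 7 higher members (9.91% of all genes) were Sparc, Col4a1, Col4a2, Nid2, Lama4, Col9a3 and Itgb1, and the 4 lower members (6.14% of all genes) were Itga6, Itga2, Col17a1 and Lamb3. The 2 libraries that remain, 45 and 46, hold the highest visceral endoderm sums of FCPG. FCSPG libraries 13 and 32, at 1249 and 1260.2 FPKM, had sums close to the 1274 FPKM of FCPG library 46. The part of visceral endoderm in these calls was not tested. Fibrillar chains were not among the calls, and Col3a1 had adjusted p = 0.0908 there. Without FCPG library 45 or 46, edgeR called 0 genes in this comparison.

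**Figure D4:**
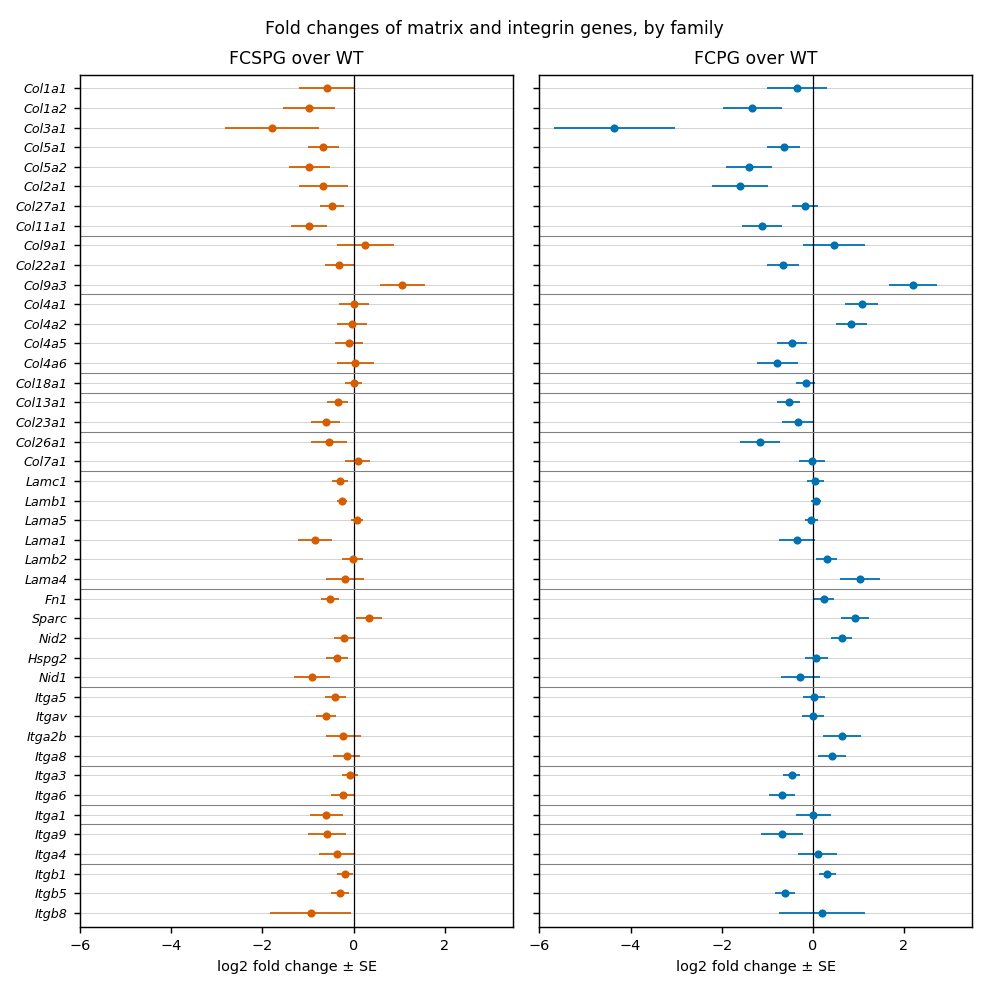
log2 fold change ± SE from edgeR of 43 members that averaged at least 5 CPM, for FCSPG against WT on the left and FCPG against WT on the right. Fibrillar chains lie left of 0 in both panels, and Col4a1, Col4a2, Sparc, Nid2, Lama4 and Col9a3 lie right of 0 in the FCPG panel.

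The mutants were compared directly to see where FCSPG departs from FCPG. At an unadjusted p under 0.05, 9 of 71 members were counted, beside 11.4% of all tested genes. All 9 were lower in FCSPG (6.67% of all genes were) and 0 were higher (4.77%), and the lower ones were Nid2, Fn1, Col4a1, Lamb1, Lama4, Itgb1, Itgav, Itgb4 and Col4a2. FCSPG and FCPG values were separate in every library for 0 members, where they were for 4.66% of all genes (2.34% with FCSPG higher and 2.33% with FCSPG lower). FCPG library 19 lay inside the FCSPG range for 8 of the 9 genes and below it for Lama4. The median log2 fold change of the members was 0.0049, beside −0.0078 for all tested genes.

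Fn1 differed between the mutants by a log2 fold change of −0.77 ± 0.21 (SE, adjusted p = 0.435), and Nid2 by −0.85 ± 0.23 (SE, adjusted p = 0.435). Col4a1 differed by −1.07 ± 0.36 (SE, adjusted p = 0.435), and without FCPG library 45 by −0.22 ± 0.14 (SE). Itgav differed by −0.62 ± 0.23 (SE, adjusted p = 0.435) and Lamb1 by −0.31 ± 0.11 (SE, adjusted p = 0.435). Lama4 differed by −1.21 ± 0.44 (SE, adjusted p = 0.435), Itgb1 by −0.50 ± 0.19 (SE, adjusted p = 0.435) and Col4a2 by −0.87 ± 0.34 (SE, adjusted p = 0.435). Itgb4 differed by −1.86. Without FCPG library 45, Col4a2 stood at −0.10 and Itgb4 at −0.20, and without FCPG library 46 Lama4 stood at −0.46. Fn1, Nid2 and Itgb1 kept −0.53, −0.52 and −0.37 without FCPG library 45. The largest positive difference was that of Col3a1, at 2.57 ± 1.23 (SE, adjusted p = 0.437), which rests on FCSPG libraries 27 and 30. Without FCPG library 19, edgeR called 1063 of 17045 genes (6.24%) and 11 of 72 members between the mutants. Fn1, Nid2, Col4a1, Col4a2, Itgb1, Itgav, Itga5, Lama4, Lamb1 and Sparc were lower in FCSPG (10 members, 3.02% of all genes), and Lamb3 was higher (1 member, 3.22%). Fn1 then stood at −1.001 ± 0.15 (SE, adjusted p = 0.0182).

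Genes that make, cut or receive this matrix were taken from 5 textbook lists. No gene of any list passed edgeR's adjusted test, so counts are at unadjusted p under 0.05, and the shares of all genes given above for each comparison apply. Of 28 collagen-modifying and folding enzymes, 0 were counted in FCSPG, and 4 were higher and 1 lower in FCPG. Serpinh1, the collagen chaperone and the highest of the list, was nearly level, with log2 fold changes of −0.17 ± 0.15 in FCSPG and −0.15 ± 0.17 in FCPG (SE). P3h2, a prolyl hydroxylase, and Crtap, a partner of a related hydroxylase, had 1.08 ± 0.40 and 0.81 ± 0.28 (SE) in FCPG, and Adamts2, the procollagen N-proteinase, 0.84 ± 0.28 (SE). Library 45 was the highest for all 3. Lox, a collagen crosslinking oxidase, was rare at 0.106, 0.295 and 0.122 CPM in the FCPG libraries, against 0.793, 0.751, 1.05 and 0.310 CPM in the WT libraries.

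Of 20 tested matrix proteases and inhibitors, 1 was lower in FCSPG, and 1 was higher and 5 were lower in FCPG. Adamts4, Mmp9, Adamts5 and Mmp11, all secreted metalloproteinases, had log2 fold changes of −0.80 ± 0.35, −1.25 ± 0.53, −2.13 ± 0.91 and −0.72 ± 0.31 (SE) in FCPG. Of 42 tested glycoproteins and proteoglycans, 2 were higher and 2 lower in FCSPG, and 2 were higher and 7 lower in FCPG. Fbn2, the embryonic fibrillin, reached 39.6, 114, 165 and 41.4 CPM in the FCSPG libraries, 69.5, 69.7 and 93.4 CPM in the FCPG libraries and 221, 211, 299 and 116 CPM in the WT libraries, and Ltbp1, which binds latent TGF-beta to fibrillin, 27.9, 47.6, 49.6 and 24.9 CPM in the FCSPG libraries, 35.9, 11.8 and 41.6 CPM in the FCPG libraries and 66.9, 85.1, 91.1 and 50.3 CPM in the WT libraries. Every FCPG value of both genes and every FCSPG value of Ltbp1 was below WT. Fbn2 had log2 fold changes of −1.24 ± 0.44 (SE, adjusted p = 0.446) in FCSPG and −1.45 ± 0.49 (SE, adjusted p = 0.134) in FCPG, and Ltbp1 −0.97 ± 0.37 (SE, adjusted p = 0.446) in FCSPG and −1.30 ± 0.41 (SE, adjusted p = 0.120) in FCPG. Agrn, the basement membrane proteoglycan agrin, was above WT in every library of both mutants, at 0.15 ± 0.17 in FCSPG and 0.57 ± 0.19 in FCPG (SE).

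Of 16 receptors other than integrins, 2 were higher in FCSPG, and 2 were higher and 4 lower in FCPG. Sdc4, the syndecan of focal adhesions that binds fibronectin, reached 45.9, 31.1, 29.5 and 33.2 CPM in the FCSPG libraries, 22.5, 61.02 and 25.7 CPM in the FCPG libraries and 19.98, 21.97, 10.5 and 17.1 CPM in the WT libraries. Both mutants lay above every WT library, by log2 fold changes of 1.01 ± 0.33 (SE, adjusted p = 0.446) in FCSPG and 1.07 ± 0.35 (SE, adjusted p = 0.128) in FCPG. The syndecan gene Sdc1 and the glypican gene Gpc4 were below WT in all FCPG libraries, at −0.65 ± 0.22 and −1.23 ± 0.40 (SE), and Bcam, a laminin alpha 5 receptor, was higher in FCSPG at 0.47 ± 0.17 (SE). Of 36 cytoplasmic proteins linked to integrins, 1 was lower in FCSPG, and 3 were higher and 1 lower in FCPG. Flna, the most abundant, had log2 fold changes of −0.20 ± 0.13 in FCSPG and −0.029 ± 0.14 in FCPG (SE), and the kinase Ptk2b and the adaptor Parvb had 1.55 ± 0.50 and 0.89 ± 0.30 (SE) in FCPG.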

How the data were processed

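RNA sequencing libraries of 3 genotypes were compared. Per the submitters' processing notes, reads were aligned with HISAT2 to build mm39, counted per gene with featureCounts and tested with DESeq2. Versions, the annotation release and strand options are not given in the sources used here, so genes that overlap on opposite strands are uncertain. The authors deposited raw counts, which entered all tests. The authors also deposited FPKM, used to check the FPKM computed here from counts, gene lengths and library sizes. The authors' deposited comparison tables give log2 fold changes of WT over mutant with a p-value and an adjusted p-value.

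Columns were assigned to groups by genotype in their names, and 0 columns of values were left over. Genes were filtered with edgeR's filterByExpr, scaled by TMM and tested with edgeR 4.0.16 (R 4.3.3), two-sided quasi-likelihood tests in 1 fit of all 11 libraries, adjusted by Benjamini-Hochberg, threshold 0.05. SEs are the log2 fold change over the square root of F. Library totals of 16014698 to 25453070 counts limit precision less than the spread between libraries, a coefficient of variation of 0.325.

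The members and gene lists were chosen with earlier results of these data known. Members averaging at least 5 CPM, their partner chains, and members at unadjusted p under 0.05 were named, except 1 that is not reported here, and of each other list the 4 genes of smallest p and the highest in level could be. Alternatives were DESeq2 1.42.0, limma 3.58.1 with voom, DESeq2 size factors, no filter, 1 CPM in 3 libraries, only the groups compared, and each library left out. Motifs were searched in RefSeq start regions of GRCm38.p6, whose coordinates were not mixed with mm39.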

Additional observations from a re-analysis of the deposited data

Results flagged for a closer look

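Within the groups of 4 libraries, the highest or lowest value of a member, or of the summed level of a family or of the whole set, was examined. It was singled out where its gap to the nearest other library took up more of the range of the group than Dixon's critical value for 4 samples allows. Of 118 pairs of a gene or summed level with a group, 6 did so, all of them genes, and chance alone marks about 1 in 20.

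WT library 33 stood apart in 4 of the 6. Its Col1a1 level was 69.8 CPM, where the other 3 WT libraries lay between 169 and 189 CPM. Col1a2, the partner chain, was at 54.5 CPM there and between 111 and 122 CPM in the others. Col22a1, a fibril-associated collagen, was at 4.40 CPM, against 6.73 to 7.13 CPM in the others. Lama4 was high in place of low, at 36.0 CPM against 21.0 to 22.6 CPM.

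The collagen receptor chain Itga1 was at 9.53 CPM in WT library 26, against 4.97 to 5.74 CPM in the other WT libraries. In the FCSPG group, Col23a1, a transmembrane collagen, was at 6.40 CPM in library 13, against 16.1 to 17.9 CPM in the other 3 libraries.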

How the results depend on the processing

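Without each library in turn, the number of genes past edgeR's adjusted p of 0.05 lay between 0 and 4 in FCSPG against WT, 0 and 2736 in FCPG against WT, and 0 and 1063 in FCSPG against FCPG. The members past it lay between 0 and 0, 0 and 11, and 0 and 11 in the same comparisons, and both upper counts of 11 came without FCPG library 19. The 4 genes called in each comparison with WT came without WT library 33. Members at unadjusted p under 0.05 ranged from 1 (without FCSPG library 13) to 18 (without FCSPG library 30) in FCSPG against WT, where it was 2 without WT library 26, 3 without FCSPG library 32 and 15 without WT library 33. They ranged from 8 (without FCPG library 45) to 24 (without FCPG library 19) in FCPG against WT, where it was 10 without WT library 26, and from 5 (without FCPG library 45) to 23 (without FCPG library 19) in FCSPG against FCPG. Median log2 fold changes of the members ranged from −0.44 to −0.20, from −0.43 to −0.12, and from −0.29 to 0.078. DESeq2 called 41, 1477 and 1 genes in these comparisons, and 0, 6 and 0 members. With no filter on low counts, edgeR called 403 genes and 1 member in FCPG against WT, and 14 members reached an unadjusted p under 0.05 in FCSPG against FCPG. limma-voom gave a median of −0.45 in FCPG against WT. An alternative chosen after seeing the data left out FCPG library 45 and WT library 33 together: 7 genes were called in FCSPG against WT and 1 in FCPG against WT, and 20 and 4 members reached an unadjusted p under 0.05 in FCSPG against WT and FCSPG against FCPG. The cause of these shifts was not tested. For members at unadjusted p under 0.05 with all libraries, chosen by that p, 503 fold changes were recomputed: 0 turned sign, 24 came past the threshold and 479 stayed on their side of it. Over 43 members at 5 CPM or more, DESeq2 and the settings that leave out libraries turned the sign of 24 of 430 values in FCSPG against WT, 39 of 387 in FCPG against WT and 22 of 387 in FCSPG against FCPG, none of them called. No paired analysis was possible because the table's columns carry none of the titles' replicate numbers. Members under 5 CPM rest on few counts, and their fold changes are imprecise.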
